A study of Rattus norvegicus with 10 samples.

Results

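The nuclear genes for the subunits of the mitochondrial respiratory chain and ATP synthase were measured by 101 of the 31042 probe sets of the array, those whose single gene symbol in the platform annotation begins with Nduf, Uqcr, Sdh followed by a, b, c or d, Cox followed by 4 to 8, or Atp5. They stand for 90 of the 14217 genes with a probe set of their own. The rule reads symbols alone, but it was fixed with earlier results of these data known. The tissue was the NTS (nucleus tractus solitarii), where baroreceptor and other visceral afferents end in the brainstem. It came from male rats aged 10 to 13 weeks of 2 untreated inbred strains, the spontaneously hypertensive rat (SHR), which develops high blood pressure, and the normotensive Wistar-Kyoto rat (WKY). Each strain was measured on 5 Affymetrix Rat 230 2.0 arrays. The design text calls each array a biological replicate and the sample descriptions speak of 5 animals, so whether an array holds 1 rat or a pool is not settled. The p-values speak only of the spread among these arrays. The comparison asks which of these transcripts differ between a strain with high and a strain with normal blood pressure.

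The respiratory chain passes electrons from NADH and succinate to oxygen and pumps protons across the inner mitochondrial membrane. Complex I (NADH dehydrogenase) and complex II (succinate dehydrogenase) feed ubiquinone, complex III passes the electrons to cytochrome c, and complex IV (cytochrome c oxidase) reduces oxygen. Complex V, the ATP synthase, uses the proton gradient to make ATP, on which neurons depend for ion pumping and synaptic transmission. By symbol, 37 probe sets belonged to complex I, 5 to complex II, 8 to complex III, 16 to complex IV and 17 to complex V, with Ndufa4 placed in complex IV, where its protein is found. The remaining 18 carried symbols of assembly factors (Ndufaf and Sdhaf genes), the ATPase inhibitor Atp5if1, the paralog Ndufa4l2, the supercomplex factor Cox7a2l and the pseudogene Cox6c-ps1. Genes of this system have many near-identical pseudogenes in the rat, which a probe set could also detect.

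The arrays could be compared, with limits. A probe set was tested if at least 5 of the 10 arrays reached the 40th percentile of their array, which kept 18846 in all and 94 of the 101 members, standing for 85 symbols. The members were bright: the median of their mean signals was 895 in SHR and 914 in WKY, against 96.6 and 95.2 over all kept probe sets, and 87 of the 94 exceeded the array median in all 10 arrays. Their replicates were close, with a median SD of 0.117 log2 units in SHR and 0.0811 in WKY, against 0.164 and 0.136 over all kept probe sets. Array medians spanned 44.2 to 49.8 (SHR) and 39.6 to 45.7 (WKY), at equal trimmed means. They averaged 47.2 ± 2.33 and 42.8 ± 2.83 (SD, n = 5), so the median signal, used as a covariate in 1 alternative fit below, partly follows strain. Of the 8 markers fixed for the NTS and its noradrenergic neurons, 6 had a probe set, and Th (416 ± 19.1 in SHR, 477 ± 67.8 in WKY; SD, n = 5) and Dbh (272 ± 28.7 and 334 ± 51.1) gave clear signals, whereas the noradrenaline transporter Slc6a2 did not pass the filter. Of the 6 kept probe sets of that list 1 was lower in SHR, that of the peptide gene Prlh (538 ± 34.4 and 735 ± 165; adjusted p = 0.0379). Of 10 kept probe sets for microglia 3 were lower in SHR, those of C1qa, C1qb and 1 of Aif1; 2 differences were above 0, Cx3cr1 (0.19) and the other probe set of Aif1 (0.51), and did not pass. The summed signal of all 10 was 1385 to 1500 in SHR and 1647 to 1861 in WKY. In this linear sum the brightest probe set, that of C1qa (431 ± 22.4 and 584 ± 48.6), weighs most. The summed signal of neuronal markers overlapped, at 13820 to 15090 and 12350 to 14290. That of the choroid plexus did too, at 877.5 to 1039 and 680.3 to 936.3, with 2 of its 4 kept probe sets higher in SHR. Of 13 kept neuronal probe sets 1 was higher in SHR, that of Snap25 (0.33). An unadjusted p below 0.05 was reached by 6 of them in limma, 4 higher and 2 lower. Of 14 for oligodendrocytes 2 were lower, both of Mobp (-1.41 and -0.34), while another of Mobp was at -0.022. The 4 differences above 0 were those of Mbp (0.28, 0.093 and 0.32) and one of Cldn11 (0.17), and none of them passed. Of 6 for endothelium 1 was lower, that of Vwf (-0.52), and 2 differences were above 0. These were Pecam1 (0.40), with every SHR array above every WKY array, and Tek (0.14), and neither passed. None of 13 for astrocytes passed. The part of these cells in the differences below was not tested. In bulk tissue, fewer cells of a type and less RNA for each cell cannot be told apart.

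Promoters of these genes are known to carry sites for a few factors of the nuclear control of mitochondria, among them NRF1, the ETS factor GABP, the estrogen-related receptors (ERR) and YY1. RefSeq windows of assembly GRCr8, from 250 bases before to 50 bases after each gene's start, were available for 82 of the 90 member symbols. The 4 motifs searched on both strands, with overlaps allowed, were GCGCATG (NRF1-type), CCGGAAG (ETS-type), AAGGTCA (ERR-type) and AAGATGG (YY1-type). The windows of 4 genes are shown, chosen by the differences below. Sdhaf4 and Ndufv3 held the probe sets that passed the test, and Cox5b and Atp5mc3 had the smallest p of complexes IV and V. A link between motifs and strain differences was not tested. Capitals mark a motif.
Sdhaf4, chr9:33912764-33913063, - strand: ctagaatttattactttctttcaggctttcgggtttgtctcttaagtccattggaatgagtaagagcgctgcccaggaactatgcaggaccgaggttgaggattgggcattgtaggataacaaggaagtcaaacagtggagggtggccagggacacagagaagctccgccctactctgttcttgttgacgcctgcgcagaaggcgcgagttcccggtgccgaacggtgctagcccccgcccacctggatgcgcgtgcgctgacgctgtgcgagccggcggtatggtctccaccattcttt
Ndufv3, chr20:9613536-9613835, + strand: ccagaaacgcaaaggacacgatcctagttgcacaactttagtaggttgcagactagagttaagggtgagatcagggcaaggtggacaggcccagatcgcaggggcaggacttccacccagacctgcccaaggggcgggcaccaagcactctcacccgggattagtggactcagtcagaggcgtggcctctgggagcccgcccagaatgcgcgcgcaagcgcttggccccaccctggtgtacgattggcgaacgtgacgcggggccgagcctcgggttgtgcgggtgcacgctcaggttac
Cox5b, chr9:46417587-46417886, + strand: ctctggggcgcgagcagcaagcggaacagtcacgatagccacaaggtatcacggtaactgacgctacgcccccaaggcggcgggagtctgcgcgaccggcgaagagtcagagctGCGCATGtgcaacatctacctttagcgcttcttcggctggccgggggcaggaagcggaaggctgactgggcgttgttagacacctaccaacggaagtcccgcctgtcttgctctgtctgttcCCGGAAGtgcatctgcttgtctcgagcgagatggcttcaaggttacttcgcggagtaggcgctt
Atp5mc3, chr3:79220615-79220914, - strand: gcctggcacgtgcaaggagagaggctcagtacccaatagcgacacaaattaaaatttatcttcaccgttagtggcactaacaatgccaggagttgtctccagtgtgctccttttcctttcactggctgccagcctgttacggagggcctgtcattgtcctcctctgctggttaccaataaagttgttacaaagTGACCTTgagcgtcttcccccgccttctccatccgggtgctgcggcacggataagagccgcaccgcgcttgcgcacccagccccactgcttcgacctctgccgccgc
The window of Cox5b held GCGCATG with its first base at position -136 and CCGGAAG at position -14, counted from the start. The window of Atp5mc3 held the reverse complement of AAGGTCA at position -57. None of the 4 motifs was found in the windows of Sdhaf4 and Ndufv3, which says only that these letters are not in those windows.

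Over the member promoters as a whole the motifs were common. At least 1 of the 4 was present in 47 of 82 member windows (57.3%), against 22.3% of the 27457 windows of all genes and 23.9% of the 18923 windows of other protein-coding genes. CCGGAAG stood in 25 member windows (30.5%, against 9.22% of all), AAGATGG in 20 (24.4%, against 7.30%), GCGCATG in 12 (14.6%, against 3.94%) and AAGGTCA in 11 (13.4%, against 4.37%). By complex, windows with any motif numbered 17 of 32 in complex I, 3 of 4 in complex II, 4 of 6 in complex III, 5 of 13 in complex IV, 10 of 14 in complex V and 8 of 13 among the assembly and related genes. A match is a description of the letters and not a binding site, and the windows were not matched on base composition.

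**Figure D1:**
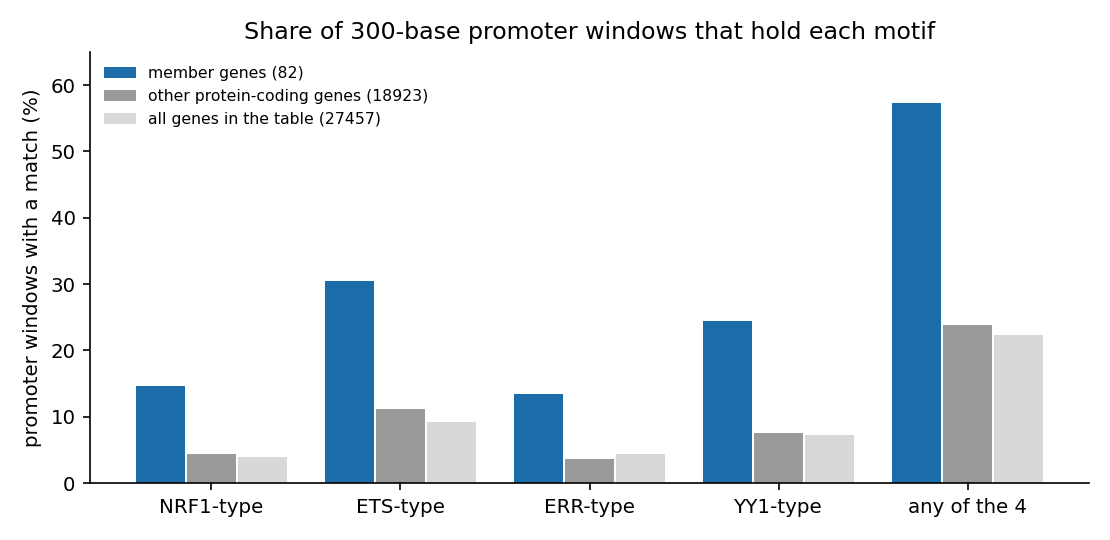
Percent of promoter windows of 300 bases that hold each motif on either strand, for 82 member genes, 18923 other protein-coding genes and all 27457 genes of the RefSeq table. The member bars are the tallest for every motif, from 13.4% for the ERR-type to 30.5% for the ETS-type.

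Few of these probe sets passed the test between the strains, as was so over all kept probe sets. With 5 arrays a strain, a probe set that did not pass is not thereby equal in both. Of the 94 kept probe sets, 1 was higher in SHR (Sdhaf4) and 1 lower (one of the probe sets of Ndufv3), which is 2.13% (limma, Benjamini-Hochberg adjusted p below 0.05 over all kept probe sets). Over all 18846 kept probe sets 4.26% passed, 2.06% higher and 2.20% lower. An unadjusted p below 0.05 was reached by 14 members, 14.9% against 21.0% over all; 6 of them were higher in SHR and 8 lower, where the shares over all were 11.4% and 9.62%. The values of the strains did not overlap for 5 members, 5.32% against 6.13% over all, with 1 higher and 4 lower against 3.22% and 2.91%. These shares are near or below the background. The median log2 difference, SHR minus WKY, was 0.027 over the 94 members and 0.016 over all kept probe sets, and the quartiles of the members were -0.029 and 0.080. With the arrays as scaled by the authors, the 95% interval of the log2 difference lay within 1.25-fold in both directions for 77 of the 94. These included all 5 of complex II and all 8 of complex III. The intervals hold the spread among arrays and not the choice of scaling. For Cox8a the interval was 0.022 to 0.25, and the difference was -0.040 with quantile normalization. All differences are on the scale of log2(signal + 16).

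**Figure D2:**
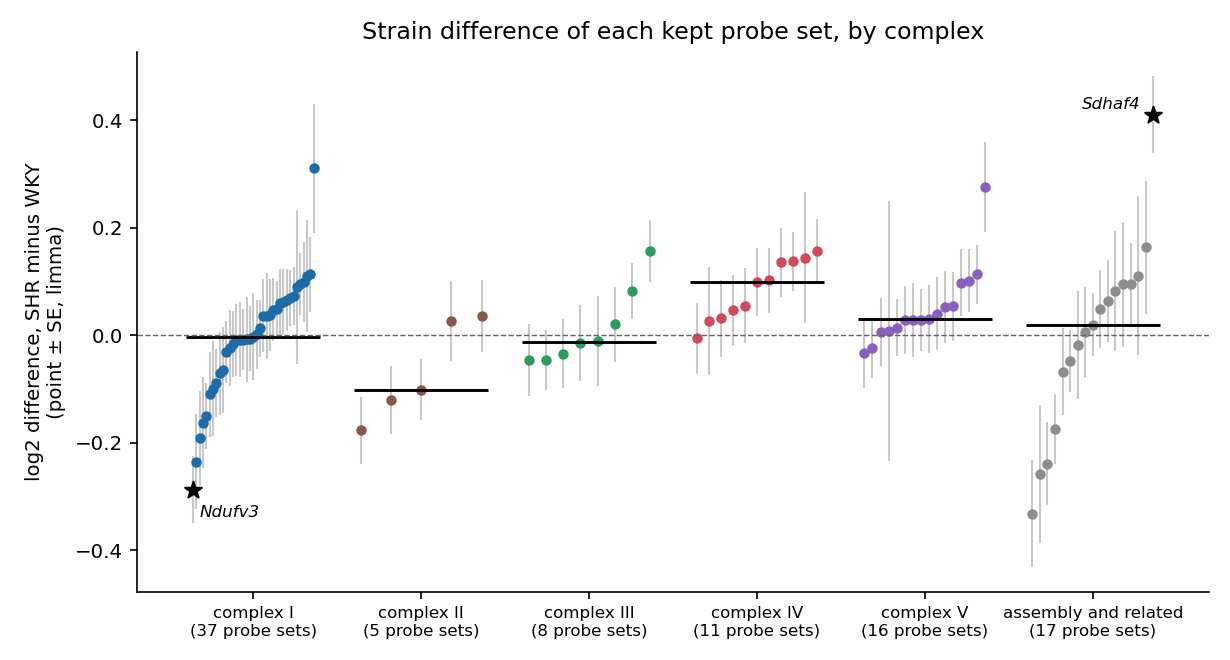
Log2 difference, SHR minus WKY, of each of the 94 kept probe sets (point ± SE from limma, 5 arrays a strain), sorted within each complex, with the complex median as a line. Stars mark the 2 probe sets that passed, Sdhaf4 at 0.41 and Ndufv3 at -0.29. Most other points lie within 0.2 of 0.

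Sdhaf4 encodes an assembly factor of complex II that binds the flavin-loaded catalytic subunit Sdha before it joins Sdhb. Its signal was 298.3, 276.3, 272.0, 292.2 and 327.4 in SHR 1 to 5, and 238.1, 192.3, 224.5, 219.0 and 210.3 in WKY 1 to 5. Every SHR array was above every WKY array. Sdhaf4 averaged 293 ± 22.0 (SHR) and 217 ± 17.0 (WKY; SD, n = 5). This is a 1.33-fold higher level in SHR and, on the log2 scale, a difference of 0.41 ± 0.072 (SE; adjusted p = 0.00278). The difference passed in all 22 alternative fits, the 10 that leave out an array included, at 0.35 to 0.47.

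The other assembly factors of complex II did not pass. Sdhaf3, which takes part in maturation of the iron-sulfur subunit, had 89.9, 122.2, 119.6, 90.3 and 94.5 in SHR 1 to 5 and 123.4, 142.1, 114.9, 140.3 and 147.1 in WKY 1 to 5. SHR 2 and SHR 3 lay between the 2 lowest WKY arrays and the other SHR arrays lay below all of WKY. The log2 difference was -0.33 ± 0.10 (adjusted p = 0.0681). It passed without SHR 2 (-0.39, adjusted p = 0.0489), without SHR 3 (-0.38, adjusted p = 0.0429) and without both (-0.47, adjusted p = 0.0100). It also passed with all arrays in a fit that weights them by quality (-0.39, adjusted p = 0.0241). Sdhaf1, also of iron-sulfur maturation, had 391 ± 17.4 and 386 ± 18.4, and Sdhaf2, which attaches the flavin to Sdha, had 250 ± 28.2 and 262 ± 18.8 on the probe set that was kept.

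The 4 subunits of complex II were measured by 5 probe sets, of which 0 passed; 1 had an unadjusted p below 0.05, and their median log2 difference was -0.10, which was -0.042 without SHR 2 and SHR 3 and -0.032 with the median signal of the array as a covariate. Sdha, the catalytic flavoprotein subunit, had 829.5, 811.8, 733.7, 757.9 and 853.0 in SHR 1 to 5 and 850.3, 870.4, 859.0, 957.3 and 979.4 in WKY 1 to 5. A single SHR array, SHR 5, exceeded the lowest WKY array. Its log2 difference was -0.18 ± 0.062 (adjusted p = 0.115). The membrane anchor Sdhc differed by -0.10 ± 0.056. The other anchor, Sdhd, differed by -0.12 ± 0.063 on its brighter probe set and by 0.026 ± 0.074 on the other. Sdhb, the iron-sulfur subunit, had 822 ± 54.1 and 803 ± 76.9 (0.036 ± 0.068). Sdhaf4 was higher in SHR, while Sdha, the subunit it chaperones, had a difference of the opposite sign that did not pass. Over the 22 alternative fits that of Sdha ran from -0.20 to -0.048 and passed in none. A link between these genes was not tested.

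**Figure D3:**
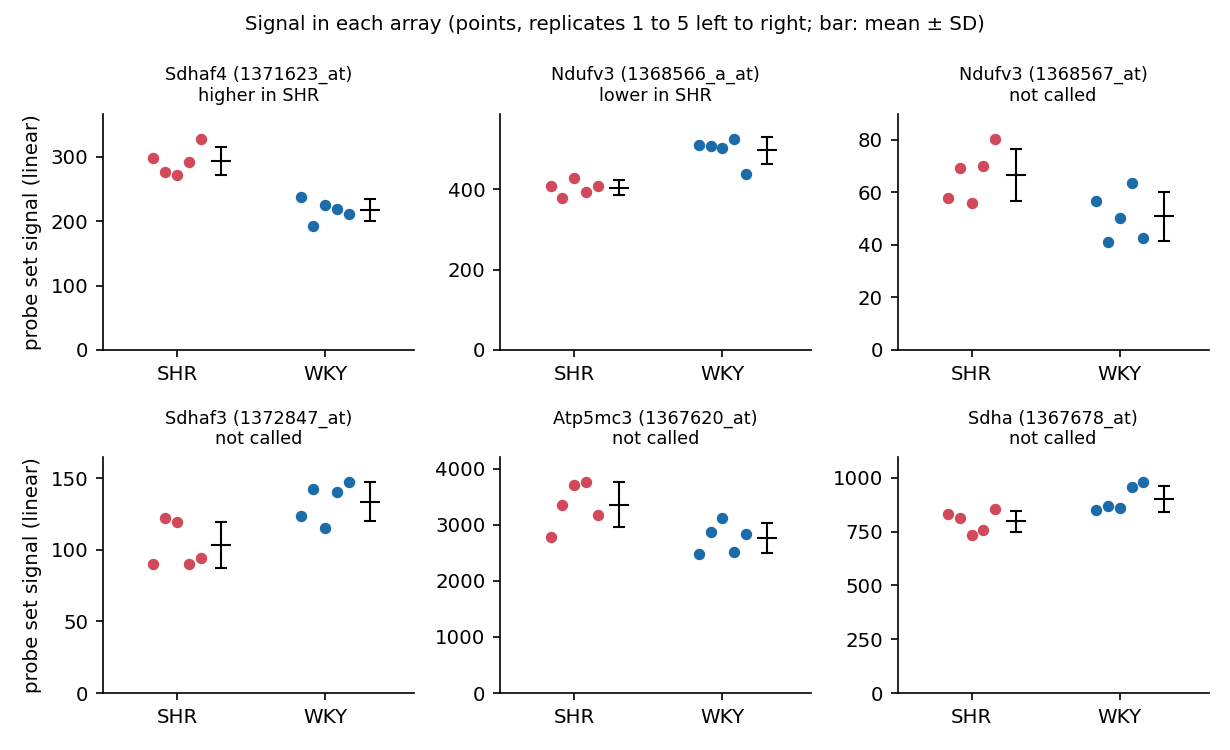
Linear signal of 6 probe sets in the 5 SHR and the 5 WKY arrays (points), with the mean ± SD beside them and axes that start at 0. Sdhaf4 separates the strains upward in SHR and the brighter Ndufv3 probe set downward, the dimmer Ndufv3 probe set leans the other way, and Sdhaf3, Atp5mc3 and Sdha overlap.

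In complex I, 1 of 37 probe sets was lower in SHR and 0 were higher; 18 differences were above 0 and the median was -0.0026, a value whose sign turned in several alternatives, up to 0.065 with the covariate. Ndufv3 is an accessory subunit of the flavoprotein part of the matrix arm, where NADH is oxidised, and is known to have spliced forms that differ in length. Its brighter probe set had 408.8, 379.1, 429.1, 391.8 and 409.1 in SHR 1 to 5 and 510.7, 506.4, 502.1, 524.8 and 438.7 in WKY 1 to 5. Every SHR array was below every WKY array, with WKY 5 nearest. The log2 difference was -0.29 ± 0.062 (adjusted p = 0.0128), 1.22-fold lower in SHR. The dimmer probe set had 57.9, 69.4, 55.9, 69.8 and 80.2 in SHR and 56.5, 41.1, 50.3, 63.4 and 42.6 in WKY, and these ranges overlapped (0.31 ± 0.12; adjusted p = 0.150, not passed). Averaged over both probe sets, Ndufv3 differed by 0.012 ± 0.074 (adjusted p = 0.950). Which transcript form each probe set reads was not settled here. The call of the brighter probe set held in all 10 fits without an array and ended with quantile normalization (-0.23, adjusted p = 0.0616) and with the median signal of the array as a covariate (-0.33, adjusted p = 0.0752).

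Other complex I subunits with low p did not pass. Ndufb8, an accessory subunit of the membrane arm, had 159.3, 164.8, 153.4, 123.5 and 169.7 in SHR and 170.3, 180.8, 215.3, 177.2 and 175.8 in WKY. The highest SHR array, at 169.7, was just under the lowest WKY array, at 170.3, so the strains did not overlap (-0.24 ± 0.088; adjusted p = 0.137). Ndufa13, an accessory subunit also known as GRIM-19, had 1227 ± 86.9 and 1361 ± 76.6 (-0.15 ± 0.062; adjusted p = 0.172). The core subunit Ndufs8, which carries iron-sulfur clusters, had 392.3 in SHR 3 and 526.5 to 585.2 in the other SHR arrays, against 575.2 to 625.4 in WKY (-0.19 ± 0.087; adjusted p = 0.220). The core subunits Ndufs1, Ndufs3 and Ndufv1 differed by 0.038, 0.013 and -0.023.

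In complex III, 0 of 8 probe sets passed and 1 had an unadjusted p below 0.05. That was Uqcrq, a small subunit near the ubiquinone site, with 1315 to 1569 in SHR and 1198 to 1320 in WKY (0.16 ± 0.058; adjusted p = 0.131). The core protein Uqcrc1 had 1088 ± 31.2 and 1027 ± 43.8 (0.082 ± 0.052). The Rieske iron-sulfur protein Uqcrfs1 had 895 ± 40.6 and 925 ± 50.9, and the hinge protein Uqcrh, which docks cytochrome c, had 1627 ± 149 and 1677 ± 93.5; both differences were -0.046. The sign of that of Uqcrh turned when SHR 2 and SHR 3 were both left out (0.035) and when the array median was a covariate (0.11), and that of Uqcrfs1 with the covariate (0.00026). The median of the complex was -0.013, and its sign turned without SHR 3 (0.047), without both SHR 2 and SHR 3 (0.057), with array weights (0.016) and with the covariate (0.068).

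Complexes IV and V leaned upward in SHR in the signals as the authors scaled them, with 0 probe sets past the test in limma and 2 and 1 with an unadjusted p below 0.05: 10 of 11 differences were above 0 in complex IV and 14 of 16 in complex V, against 54.0% over all kept probe sets. The medians were 0.10 and 0.030; with the covariate that of complex V was 0.093. Cox5b, a subunit on the matrix side of cytochrome c oxidase, had 1976, 2041, 2077, 2235 and 2339 in SHR 1 to 5 and 1804, 1977, 2042, 1858 and 1869 in WKY 1 to 5, and the ranges overlapped (0.16 ± 0.060; adjusted p = 0.143). Cox8a, a small membrane subunit, had 2708 in SHR 1 and 3008 to 3081 in the other SHR arrays, against 2583 to 2830 in WKY (0.14 ± 0.055; adjusted p = 0.160). Cox7c and Cox6c differed by 0.14 ± 0.065 and 0.10 ± 0.061.

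In the ATP synthase the largest difference was that of Atp5mc3, one of the genes for subunit c of the proton-driven ring. It had 2780, 3352, 3713, 3757 and 3172 in SHR 1 to 5 and 2482, 2874, 3120, 2507 and 2834 in WKY 1 to 5. SHR 1 fell within the WKY range and the other SHR arrays lay above it. The log2 difference was 0.28 ± 0.084 (adjusted p = 0.0723). It passed without SHR 1 (0.34, adjusted p = 0.0190) and was 0.080 with quantile normalization. The catalytic subunit Atp5f1b differed by 0.11 ± 0.055, the regulatory subunit Atp5f1a by 0.10 ± 0.058 and the central stalk subunit Atp5f1e by 0.098 ± 0.063. The other kept probe sets of complex V differed by -0.032 to 0.054.

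That lean moved with signal. The 44 members with a mean signal of 1000 or more had a median difference of 0.049, with 33 above 0, and the 550 other kept probe sets of that brightness had a median of 0.048, with 373 above 0 (67.8%). The 50 dimmer members had a median of -0.0076. Quantile normalization, which gives all arrays the same distribution, took the bright members to 0.0078 and the other bright probe sets to -0.00099. In complex IV the median then turned from 0.10 to -0.028 and 4 of 11 differences were above 0, so the direction of this complex depends on the scaling. Of the 94 members 21 changed sign, 13 from above to below 0 and 8 the other way. The 6 of complex IV were Cox4i1, Cox6a1, Cox6c, Cox7b, Cox8a and Ndufa4, and the 3 of complex V were Atp5f1b, Atp5mk and the dimmer probe set of Atp5me. In complex V 11 of 16 stayed above 0, with a median of 0.022. Cox5b kept a difference of 0.099 and Cox7c of 0.10, neither past the test.

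**Figure D4:**
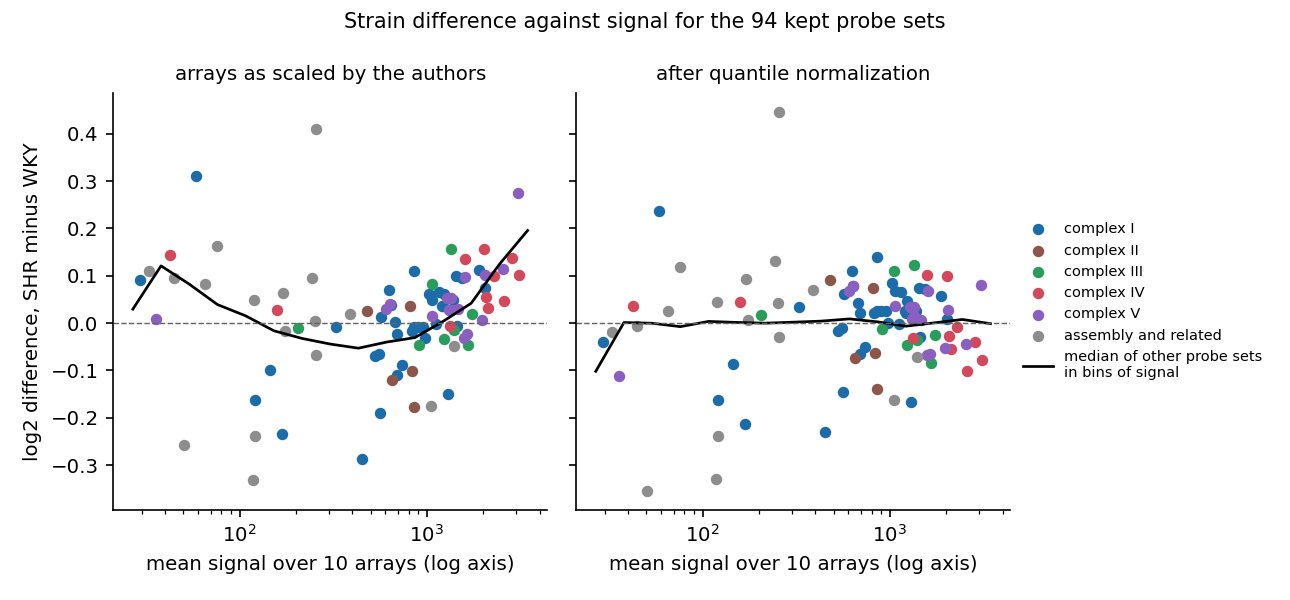
Log2 difference, SHR minus WKY, against mean signal for the 94 kept probe sets, colored by complex, with the line giving the median of the other kept probe sets in bins of signal (bins of 20 or more). In the signals as scaled by the authors the line and the members rise together above a signal of about 1000; after quantile normalization the line is near 0 for signals above the lowest bin and complex IV has a median of -0.028.

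The subunit probe sets varied together from array to array, across the strains. Of 77 kept subunit probe sets, 66 were above their own mean in SHR 5, 61 in WKY 3 and 57 in SHR 4, but 14 in WKY 1 and 23 in SHR 3. The mean log2 deviation of all 94 members was 0.077 in SHR 5 and 0.057 in SHR 4, and -0.068 in SHR 3 and -0.061 in WKY 1. The extremes of both directions thus included SHR arrays, and the strain means of this score were 0.0068 ± 0.059 and -0.0068 ± 0.034 (SD, n = 5). Complex IV had the widest range, from 0.16 in SHR 4 to -0.16 in WKY 1. Complex II went another way, with its highest mean, 0.15, in WKY 5. Within strains, the mean pairwise correlation over the 10 arrays was 0.27 among the 77 subunit probe sets and 0.48 within complex IV, as a description. Over all kept probe sets this correlation was 0.0028. Among bright probe sets alone it was 0.43 for the 42 of subunits and 0.25 for the 550 others. All of these share the same arrays and their scaling. The other bright probe sets had their highest means in the same arrays, SHR 4 (0.097) and SHR 5 (0.076), and the lowest in WKY 1 (-0.10), but in SHR 3 they were at 0.0072. The glycolysis list, of which most members are bright as well, was at 0.096, 0.073, -0.12 and 0.018 in these 4 arrays, and neuronal markers at -0.0034, 0.089, -0.081 and 0.013. Their part in the joint variation was not tested.

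**Figure D5:**
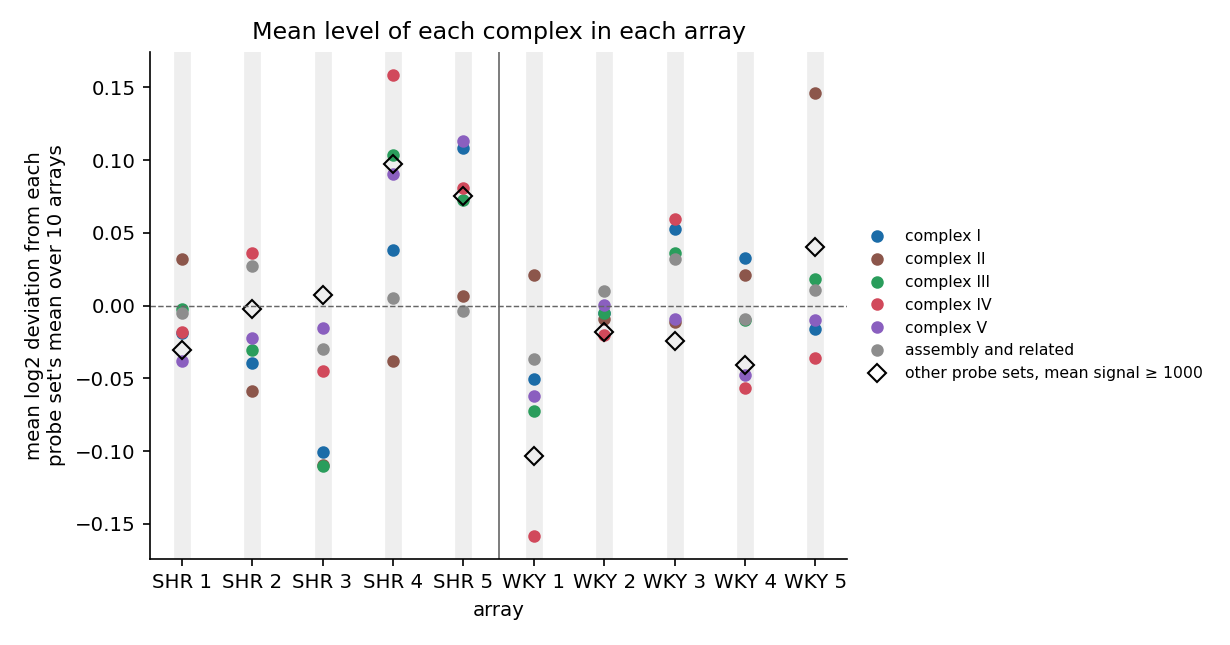
Mean log2 deviation of the kept probe sets of each complex from their own means over 10 arrays, in each array; open diamonds give the 550 other probe sets with a mean signal of 1000 or more. SHR 4 and SHR 5 are high and WKY 1 low for complexes III, IV and V and for the diamonds, while complexes I, II and III are low in SHR 3 where the diamond is near 0.

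Several subunits of complex IV have isoforms made mainly in other tissues. Levels of different probe sets cannot be set against each other, so each is compared between the strains alone. The muscle isoforms Cox6a2 (7.64 ± 5.03 in SHR, 11.97 ± 3.86 in WKY) and Cox8b (2.70 ± 1.16 and 1.25 ± 0.221), the oxygen-regulated isoform Cox4i2 (20.3 ± 4.87 and 27.9 ± 7.19) and the testis isoforms Cox6b2 (14.9 ± 5.47 and 29.1 ± 8.52) and Cox7b2 (25.3 ± 9.001 and 18.2 ± 4.26) did not pass the filter and were not tested. Cox6b2 had 7.51 to 22.5 in SHR and 23.6 to 44.0 in WKY, without overlap, at signals that low. Cox7a1, the muscle form of subunit 7a, was kept with 45.1 ± 1.47 and 39.8 ± 7.91 (0.14 ± 0.12; adjusted p = 0.527). Of 12 probe sets for skeletal muscle markers 7 were kept and 1 was higher in SHR, with summed signals of 5152 to 6974 and 4619 to 5663. The kept ones were 5 of Myh1, at 363 to 2337 in SHR and 342 to 2032 in WKY, Atp2a1, and Acta1 (134 ± 18.9 and 102 ± 5.51; adjusted p = 0.0417), which passed, and all 7 differences were above 0. Those of Ckm, Myl1, Myh2 and Tnnt3 did not pass the filter. Their part in the values of the muscle isoforms was not tested. The ubiquitous forms Cox4i1 (2622 ± 232 and 2535 ± 152), Cox6a1 (2372 ± 196 and 2209 ± 113) and Cox6b1 (1323 ± 97.4 and 1329 ± 101) did not pass the test, with differences of 0.046, 0.10 and -0.0059. Ndufa4 had 2112 ± 168 and 2033 ± 172. Its hypoxia-inducible paralog Ndufa4l2 had 44.7 ± 9.04 and 56.3 ± 7.98 (-0.26 ± 0.13; adjusted p = 0.262), with SHR 4 at 29.1 and the other SHR arrays at 45.3 to 50.8.

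Among the complex I assembly factors, Ndufaf4 had 101.0 to 114.5 in SHR and 118.7 to 143.5 in WKY, without overlap (-0.24 ± 0.077; adjusted p = 0.0907, not passed). Ndufaf1, Ndufaf3, Ndufaf5, Ndufaf7 and Ndufaf8 differed by -0.017 to 0.095. Atp5if1, the inhibitor that blocks ATP hydrolysis by complex V, had 1012, 1027, 828.5, 1020 and 1067 in SHR 1 to 5 and 1104, 1101, 1165, 1119 and 1094 in WKY 1 to 5 on its bright probe set, again without overlap (-0.17 ± 0.065; adjusted p = 0.134). Its 2 dim probe sets differed by 0.083 and 0.11. Cox7a2l, which links complexes III and IV, had 1369 ± 61.7 and 1417 ± 87.3. Another 7 probe sets carried a symbol of these families together with that of a near-identical copy and were not counted as members; 1 of them, with 2 symbols that both begin with Nduf, was higher in SHR, with 805 ± 45.3 in SHR and 656 ± 69.4 in WKY (0.29 ± 0.070; adjusted p = 0.0240).

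Other mitochondrial and glycolytic genes were read as lists, against the 4.26% of all kept probe sets that passed; the lists are small, and their shares were not tested against it. Among assembly factors outside these symbol families, 1 of 40 kept probe sets was higher and 1 lower: Atpaf2, a chaperone of the ATP synthase F1 part, had 120.5 ± 4.20 in SHR and 88.1 ± 6.31 in WKY (0.39 ± 0.077; adjusted p = 0.00679), and Tmem126b, of complex I assembly, had 422 ± 36.4 and 512 ± 8.44 (-0.27 ± 0.063; adjusted p = 0.0190). The call of Atpaf2 held in all 22 alternative fits, and that of Tmem126b ended in 5 of them: without SHR 2 (adjusted p = 0.0536), without WKY 4 (0.0510), without both SHR 2 and SHR 3 (-0.19, adjusted p = 0.107), without the intensity trend (0.0553) and with the covariate (-0.19, adjusted p = 0.371). Of 13 kept probe sets of electron carriers 1 was lower, Etfa of the electron transfer flavoprotein, with 358 ± 34.7 and 456 ± 21.9 (-0.34 ± 0.069; adjusted p = 0.00885), a call that ended with the covariate (-0.26, adjusted p = 0.259). Of 31 for pyruvate dehydrogenase and the citric acid cycle 1 was lower, Pdk2, a kinase that inhibits pyruvate dehydrogenase (-0.30 ± 0.079; adjusted p = 0.0433). Its call ended in 7 of 10 fits without an array, those without SHR 2, SHR 4 or any WKY array (adjusted p up to 0.122), and in 6 of 12 other alternatives, with -0.18 and adjusted p = 0.556 under the covariate.

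Of 27 kept probe sets of carriers and porins, 1 was higher. Another passed as lower, a dim one of Slc25a27, and is not counted for the reason given next. Slc25a27, the brain uncoupling protein UCP4, had 1.83 to 14.2 in SHR and 31.9 to 47.7 in WKY on a dim probe set. That probe set passed the filter through the WKY arrays alone, and the size of its difference was set by the offset, from -2.89 with 1 to -0.61 with 64, so no size or p is read from it. Its other probe sets had 110 ± 7.87 and 105 ± 7.79 (0.060), and 123 ± 13.6 and 122 ± 11.8 (0.011). Slc25a3, the phosphate carrier that supplies the ATP synthase, had 2686 ± 318 and 2216 ± 133 (0.27 ± 0.074; adjusted p = 0.0486). That call ended in 7 of 10 fits without an array, those without SHR 1, SHR 3 or any WKY array (adjusted p up to 0.135), and in 7 of 12 other alternatives, with 0.16 under quantile normalization and adjusted p = 0.446 under the covariate. Among 26 probe sets for regulators of biogenesis, the orphan receptor gene Esrrg was lower on one probe set (70.8 ± 16.7 and 135 ± 14.7; -0.81 ± 0.13; adjusted p = 0.00101) and differed by -0.26 ± 0.12 on the other; the call ended with the covariate (-0.61, adjusted p = 0.100). The coactivator Ppargc1b was higher (0.46 ± 0.13; adjusted p = 0.0498), a call that ended in 7 of 10 fits without an array, those without SHR 1, SHR 2, SHR 3, SHR 4, WKY 2, WKY 4 or WKY 5 (adjusted p up to 0.141), and in 7 of 12 other alternatives; under the covariate the difference was 0.096 (adjusted p = 0.841). The related Ppargc1a had 94.9 ± 4.11 and 116 ± 5.59 on a probe set that did not pass (-0.25 ± 0.075; adjusted p = 0.0728) and differed by -0.045 on another. Of 89 probe sets of the mitochondrial ribosome, 1 was lower, Mrpl4 (304 ± 18.0 and 385 ± 18.1; -0.32 ± 0.061; adjusted p = 0.00521). Of 17 for glycolysis 1 was higher, Aldoa (4206 ± 383 and 3396 ± 252; 0.31 ± 0.071; adjusted p = 0.0193), whose call ended without WKY 4 (adjusted p = 0.0677) and in 5 of 12 other alternatives, with a difference of 0.039 under quantile normalization. An unadjusted p below 0.05 was reached by 7 of the 17 for glycolysis (41.2%) and 9 of the 26 for regulators (34.6%), against 21.0% over all. None passed among 22 probe sets of cristae and mitochondrial dynamics and 13 of mitochondrial antioxidant proteins, of which 3 and 2 had an unadjusted p below 0.05 in limma.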

How the data were processed

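Per the labels, amplified NTS RNA was hybridised to 10 single-channel arrays. Each value of the deposited table is a linear signal intensity of 1 probe set on 1 array, made by the authors with GCOS 1.2 per the submitters' processing notes. In the deposited values every array has a mean of 100 after trimming 2% at each end. Background and detection settings were not known here.

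No further normalization was applied. The 57 control probe sets were left out. Linear models of log2(signal + 16) with strain as the term were fitted to the 18846 probe sets that passed the filter in R 4.3.3 with limma 3.58.1 (lmFit, then eBayes with trend). Adjusted p is Benjamini-Hochberg over all of them, with a threshold of 0.05. Intervals and p-values of single members come from this fit.

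Of the probe sets, 20826 had 1 symbol, 436 several and 9780 none; symbols were checked through Entrez identifiers in RefSeq (GRCr8). The members, lists and tests were chosen with earlier results of these data known. Named were members past the threshold, the 4 of lowest p in each complex and 3 of the related genes, other probe sets of those genes, tissue isoforms, and up to 3 genes of each list past the threshold. Atp5if1, Ndufs8, Ppargc1a, Sdhaf1, Sdhaf2, Cox7b2 and members and markers given by their difference alone were named after their values were seen. Alternatives were other scalings, offsets, filters, eBayes settings, array weights, a replicate block, a median-signal covariate, 1 value for each gene, and leaving out arrays. The covariate partly follows strain, so a call that ends with it cannot be divided between strain and array level.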

Additional observations from a re-analysis of the deposited data

Results flagged for a closer look

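Among the 68 groups of 5 arrays behind the named members, 6 had an array that stood apart from the other 4 by more than 0.71 of the group's range; chance gives about 1 in 20 such groups. The value of Ndufv3 on its brighter probe set was 438.7 in WKY 5, against 502.1 to 524.8 in the other WKY arrays. Ndufb8 had 215.3 in WKY 3, against 170.3 to 180.8. Cox8a had 2708 in SHR 1, against 3008 to 3081. Ndufa4l2 had 29.06 in SHR 4, against 45.31 to 50.79. Cox4i2 and Cox6b2, both too dim to be tested, had 15.38 in WKY 5, against 29.51 to 32.85, and 44.02 in WKY 4, against 23.56 to 27.89.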

How the results depend on the processing

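The count of members past the threshold was 2 or 3 in all alternatives but 3: it was 1 with quantile normalization, with the median-signal covariate and with kept probe sets averaged by gene, each time Sdhaf4. With the replicate block it was 3, Atp5mc3 being added (adjusted p = 0.0259). The numbers were not treated as pairs. Same-numbered arrays correlated at 0.038 to 0.28 in their deviations from the strain means, above 0.1 in 3 of 5. Of the 5 SHR arrays 2 correlated better with another number. SHR 2 and SHR 3 correlated with WKY 2 and WKY 3 at 0.11 to 0.14, and with WKY 4 and WKY 5 at -0.24 to -0.084. SHR 5 correlated with WKY 4 at 0.19 and with WKY 5 at 0.28. The labels give no batch, and the main fit has no term for a grouping of arrays shared by the strains. Over all probe sets the count of 803 was 1214 with the replicate block, 207 with the covariate and 512 without SHR 2 and SHR 3 together, and it ran from 480 to 976 with 1 array left out, lowest without WKY 4 and WKY 5 (481). The median difference of the members, 0.027, was 0.070 with the covariate and 0.057 without SHR 2 and SHR 3. With 1 array left out it ran from -0.0040 (without SHR 5) to 0.046, with 0.0019 without SHR 4, so its sign is not settled. With quantile normalization 21 of the 94 members, none of them past the threshold, changed sign; among the named ones these were Cox4i1 (-0.10), Cox6a1 (-0.0084), Cox6c (-0.078), Cox8a (-0.040), Ndufa4 (-0.028) and Atp5f1b (-0.045). Other signs of named members turned with the covariate for Uqcrfs1 (0.00026), Uqcrh (0.11) and Cox6b1 (0.025), and without SHR 2 and SHR 3 for Uqcrh (0.035). With 1 array left out, differences that turned in some fits ran from -0.0025 to 0.091 for Sdhb, from -0.015 to 0.066 for Sdhd on its dimmer probe set and from -0.042 to 0.032 for Cox6b1. The cause was not tested. No scanner file or detection call was used here, so dim signals are not judged against background.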
